A study of Mus musculus with 8 samples.

Results

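Transcripts of collagen chains, laminin chains, fibrillins, fibulins and integrin chains were measured in polarized mouse intestinal epithelial cells exposed to type III or type I interferon (IFN). The genes were taken by name: every non-control probe of a 1-color Agilent mouse array carrying a symbol of these families was collected, giving 119 probes of 83 genes among 39429 non-control probes. Of these, 60 probes of 48 genes were well above background (the call of the scanner software) on every array of at least 1 group, and these are the member probes described here. For 9 of them this held in 1 group only, as for Col17a1 and Itga11 with IFN-β. The other 59 probes were not, and 36 of them lay at the floor of 15 units on all 8 arrays.

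IEC10 cells, an immortalized intestinal epithelial line made from a mouse that carries firefly luciferase under the Mx2 promoter, were used for all arrays. All cells, controls included, carry this transgene and come from 1 line. They were grown on transwell inserts for 21 days and then left untreated (2 arrays, replicates 2 and 3), exposed to IFN-λ2 at 20 ng/mL (3 arrays) or exposed to IFN-β at 500 U/mL (3 arrays) for 9 h. The study asked how the response of such cells to both types of IFN differs. Doses of the 2 cytokines are in different units and no second dose or time was analysed here. Nothing in the labels says that replicates were separate cultures, so p-values measure the spread between these arrays, which may be technical.

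The epithelial basement membrane is a sheet of laminin and type IV collagen networks that lies under every epithelium. Laminins are trimers of an α, a β and a γ chain, and laminin-332, which includes the Lama3 and Lamb3 chains, together with integrin α6β4, type XVII and type VII collagen anchors epithelial cells in hemidesmosomes. Type IV collagen is built from 6 chains that are encoded in head-to-head gene pairs. Integrins are receptors of an α and a β chain through which cells hold on to laminins, collagens and fibronectin.

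Between 20992 and 24252 probes per array were well above background, and the number of arrays limits the precision of all values. Values are normalized intensities in units in which each array has a 75th percentile of 1500, and log2 differences are relative to this scaling. Of 9 epithelial marker genes, 7 were well above background on all 8 arrays, among them Epcam and Krt8, while the intestinal transcription factor Cdx2 was at the floor on all 8. Of the 8 epithelial genes tested, 2 were higher with IFN-λ2 than in controls, where 10% of all probes were higher. They were Cdh1 (log2 difference 0.44, limma, adjusted p = 0.0278) and Krt19 (0.41, adjusted p = 0.0211). The epithelial genes summed to 302014 to 317116 units in controls, 342080 to 365050 with IFN-λ2 and 304665 to 347945 with IFN-β. Of 10 fibroblast and mesenchyme markers, Pdgfra, Pdgfrb, Lum and Des were at the floor on all 8 arrays. Of the 5 genes of that list that were tested, 2 were higher and 1 was lower with IFN-λ2, where 10% of all probes were higher and 8.55% lower. Their summed level was 12662 to 15735 units in controls, 8606 to 9933 with IFN-λ2 and 14958 to 16870 with IFN-β. Most of this sum was Vim, which was lower with IFN-λ2 (log2 difference -0.87, adjusted p = 0.00763). Fap rose with both cytokines, from 16 to 18 units in controls to 171 to 191 with IFN-λ2 and 91 to 109 with IFN-β. For IFN-β its log2 difference from control was 2.52 (limma, adjusted p = 3.18e-05). The part of these markers in the results was not tested. Fewer cells of a kind and less RNA per cell cannot be told apart in such samples.

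To show where transcription of the main genes starts, RefSeq sequences before their annotated starts are given, on build GRCm38.p6. They were chosen because Lamb3 belongs to the laminin chains that were higher with IFN-λ2, Itgb7 had the largest difference between both cytokines among the integrins, and Col6a1 had the smallest adjusted p of the members. Each runs over the 250 bases before the start, 5′ to 3′ on the strand of the gene.
Lamb3, chr1:193301744-193301993, plus strand: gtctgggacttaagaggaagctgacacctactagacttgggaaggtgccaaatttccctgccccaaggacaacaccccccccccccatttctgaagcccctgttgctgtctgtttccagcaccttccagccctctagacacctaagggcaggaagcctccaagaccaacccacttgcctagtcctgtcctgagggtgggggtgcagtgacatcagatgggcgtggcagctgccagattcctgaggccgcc
Itgb7, chr15:102231936-102232185, minus strand: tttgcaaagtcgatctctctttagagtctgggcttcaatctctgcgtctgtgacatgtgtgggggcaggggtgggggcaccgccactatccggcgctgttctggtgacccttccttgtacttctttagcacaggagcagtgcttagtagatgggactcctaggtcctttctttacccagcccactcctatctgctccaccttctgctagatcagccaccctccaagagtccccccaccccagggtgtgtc
Col6a1, chr10:76726045-76726294, minus strand: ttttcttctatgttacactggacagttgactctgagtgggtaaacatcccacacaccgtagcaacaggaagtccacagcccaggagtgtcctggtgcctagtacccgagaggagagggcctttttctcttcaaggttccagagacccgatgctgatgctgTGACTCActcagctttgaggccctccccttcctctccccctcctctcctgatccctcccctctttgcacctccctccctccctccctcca
Capitals in the Col6a1 sequence mark a match to the AP-1 letters TGANTCA. The other sequences are shown without capitals, since Lamb3 and Itgb7 hold none of the 4 motifs searched.

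Windows from 250 bases before to 50 after the start were found for 34 of the 48 member genes, 40 windows in all, and 4 motifs were searched on both strands. The interferon-stimulated response element, spelled GAAA, any 2 bases and GAAA, stood in 3 of 40 member windows (Fbln5, Itga2b and Itga3) and in 3.44% of all 32851 windows. The STAT motif called GAS, spelled TTCNNNGAA, stood in 2 member windows (Itga10 and Lamb2) and in 8.3% of all windows. AP-1 letters stood in 2 member windows (Col6a1 and Itga3) and in 7.81% of all windows. GC boxes, spelled GGGCGG, stood in 23 of 40 member windows (57.5%) and in 35.7% of all windows. The windows of Col4a1 and Col4a2, which run in opposite directions, share 78 bases, and their annotated transcripts overlap over the first 22 bases of each. A match describes letters in a window and is no evidence of binding.

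With IFN-λ2, 7 member genes were higher and 12 were lower than in controls, while with IFN-β none passed the test, where 1.65% of all probes did. Higher genes included the laminin-332 chains Lama3 and Lamb3, integrin α6 and type VII and XVII collagen. Lower genes included 3 chains of type IV collagen, type VI and VIII collagen chains and the integrin chains α5, α7, β3, β5 and β7. By probes, limma called 9 of 60 members (15%) higher and 12 (20%) lower with IFN-λ2 at an adjusted p of 0.05, against 10% and 8.55% of all 25971 probes tested. In either direction these were 21 members (35%), against 18.6% of all probes. Of the 47 member probes well above background on all 8 arrays, 8 were higher and 12 lower, against 11.5% and 9.39% of all such probes. The IFN-λ2 and control arrays did not overlap for 13 higher and 26 lower member probes, against 24.7% and 24.9% of all probes. A 2-fold change was reached by 3 higher and 3 lower member probes, against 2.67% and 1.19% of all probes. The median log2 difference was -0.17 over the members and 0.00 over all probes.

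**Figure D1:**
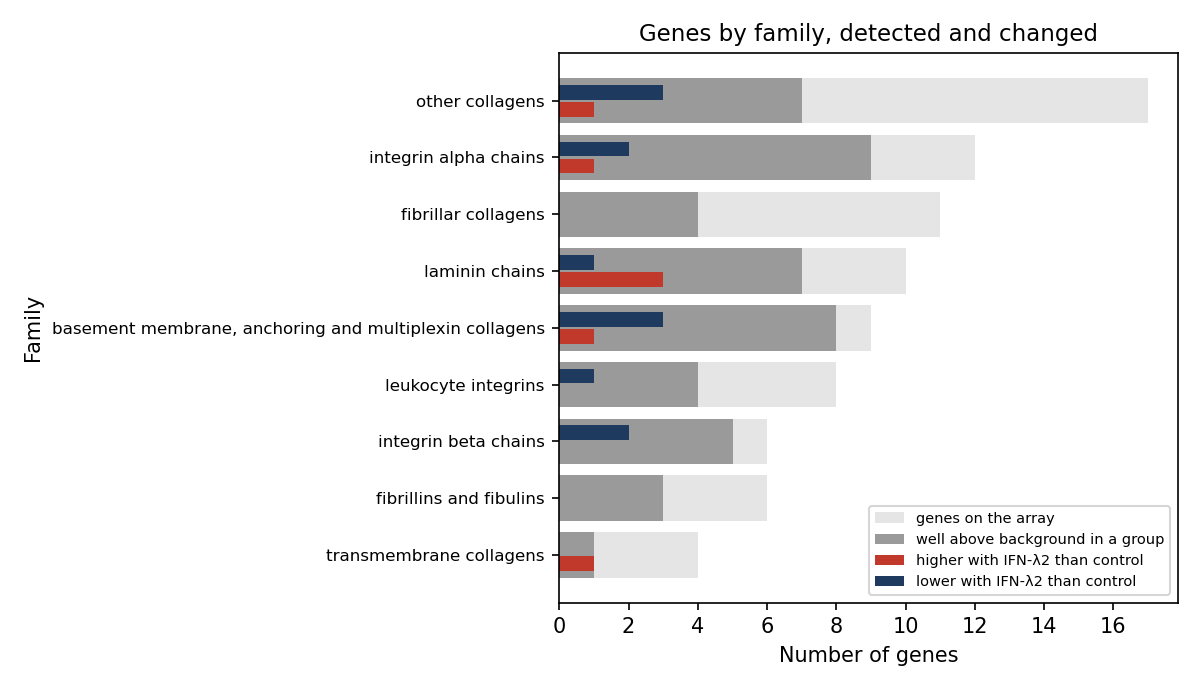
Number of genes (x axis) in each family (y axis) on the array, well above background in a group, and higher or lower with IFN-λ2 than in controls at an adjusted p of 0.05. Laminin chains had 3 higher genes and 1 lower gene, and basement membrane, anchoring and multiplexin collagens had 1 higher gene and 3 lower genes.

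Lama3 and Lamb3 were higher with IFN-λ2. For Lama3, the α3 chain, the brighter probe read 283 and 283 units in controls, 614, 582 and 646 with IFN-λ2 and 449, 341 and 334 with IFN-β. All IFN-λ2 arrays lay above all others, and the IFN-β arrays lay between. The log2 difference between IFN-λ2 and control was 1.12 ± 0.14 (SE; limma, adjusted p = 0.00229), and IFN-λ2 was also above IFN-β by 0.72 ± 0.12 (adjusted p = 0.0118). A second Lama3 probe gave 1.31 ± 0.11 (adjusted p = 0.000456) against control and 0.83 (adjusted p = 0.00317) against IFN-β. With IFN-β the brighter probe differed from control by 0.39, with a 95% interval of 0.07 to 0.71 and an adjusted p of 0.318.

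For Lamb3, the β3 chain, controls read 6760 and 5504 units, IFN-λ2 arrays 10012, 8846 and 9607 and IFN-β arrays 6404, 7140 and 6730. The IFN-λ2 arrays did not overlap with any other array, and the IFN-β arrays overlapped with the controls. The difference from control was 0.64 ± 0.11 (adjusted p = 0.00944), and from IFN-β 0.49 ± 0.10 (adjusted p = 0.023). The call against control was lost with an ordinary 2-group t-test (adjusted p = 0.0981). The call against IFN-β was lost with the slide as a replicate block (adjusted p = 0.0647), and without IFN-λ2 replicate 1 (0.0915), IFN-λ2 replicate 3 (0.0722), IFN-β replicate 1 (0.0651) or IFN-β replicate 3 (0.0787).

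Of the genes that join laminin-332 to the cell and the stroma, Itga6, the α6 integrin chain, read 7943 and 6751 units in controls, 11671, 10609 and 9933 with IFN-λ2 and 8237, 8402 and 8329 with IFN-β. IFN-λ2 arrays were above all others, by 0.55 ± 0.10 against control (adjusted p = 0.0116; 0.0616 without control replicate 3). Against IFN-β the difference was 0.36 (adjusted p = 0.0458), and it did not pass with the replicate block (adjusted p = 0.0689) or without any 1 array of either cytokine (0.0583 to 0.148). Its partner Itgb4 read 6809 and 9468 units in controls, 8572, 8861 and 7951 with IFN-λ2 and 8916, 7761 and 7260 with IFN-β. The groups overlapped for Itgb4, and its difference between IFN-λ2 and control was 0.07 with a 95% interval of -0.29 to 0.44. Itga3, the α chain of another laminin receptor, read 2002 and 2946 units in controls and 3255 to 3628 with IFN-λ2, a difference of 0.49 that did not pass (adjusted p = 0.0998). This difference rested on the control used, with 0.77 (adjusted p = 0.0299) without control replicate 3 and 0.21 (adjusted p = 0.386) without control replicate 2.

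Col7a1, which forms the anchoring fibrils, read 1185 and 1163 units in controls, 1500, 1451 and 1477 with IFN-λ2 and 1046, 1197 and 1051 with IFN-β. Its IFN-λ2 arrays lay above all others, by 0.33 ± 0.08 against control (adjusted p = 0.032) and by 0.43 ± 0.07 against IFN-β (adjusted p = 0.0119). The call against control was lost with the replicate block (adjusted p = 0.0703), without either control (0.091 and 0.123), without any IFN-λ2 array (0.067 to 0.0977) and without IFN-β replicate 3 (0.0518). Against IFN-β it was lost without IFN-λ2 replicate 1 (0.0544) or IFN-β replicate 3 (0.0506).

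Col17a1, a transmembrane collagen of the hemidesmosome, was at the floor of 15 units in both controls and read 82, 32 and 44 with IFN-λ2 and 30, 33 and 17 with IFN-β. The scanner called it well above background on neither control, on 2 IFN-λ2 arrays and on all 3 IFN-β arrays. With the floor of 15 units, the log2 difference between IFN-λ2 and control was 1.70 (limma, adjusted p = 0.0348). With the control level taken as the lowest signal well above background on each array, IFN-λ2 was 2.75-fold higher. This is no strict bound, since only 2 of 3 IFN-λ2 arrays were well above background. Between the cytokines the difference of 0.93 did not pass (adjusted p = 0.186). The call against control was lost with the replicate block (adjusted p = 0.0709) and without IFN-λ2 replicate 1 (0.0631) or 3 (0.074). It was also lost without either control, where a single control array was left. The size also rested on the treatment of dim signals. The log2 difference of Col17a1 from control was 0.80 (adjusted p = 0.0838) with normexp, a model-based background correction of the raw signal. Normexp was run with an offset of 50, which shrinks log2 differences of dim probes. With a floor of 50 units the Col17a1 difference was 0.24 (adjusted p = 0.584). For Col20a1, a fibril-associated collagen, the brighter probe read 108 and 123 units in controls, 181, 161 and 177 with IFN-λ2 and 136, 136 and 109 with IFN-β. Both Col20a1 probes were higher with IFN-λ2 than in controls, by 0.58 (adjusted p = 0.0216) and 0.46 (adjusted p = 0.0205). For the brighter probe this call was lost with the replicate block (adjusted p = 0.0722), without IFN-λ2 replicate 1 (0.0737) or 3 (0.0631) and without either control. Its difference was 0.48 without control replicate 2 and 0.68 without control replicate 3. Its call against IFN-β (0.45, adjusted p = 0.0487) was lost with the replicate block (adjusted p = 0.0965) and without any 1 of the 8 arrays (0.062 to 0.16).

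**Figure D2:**
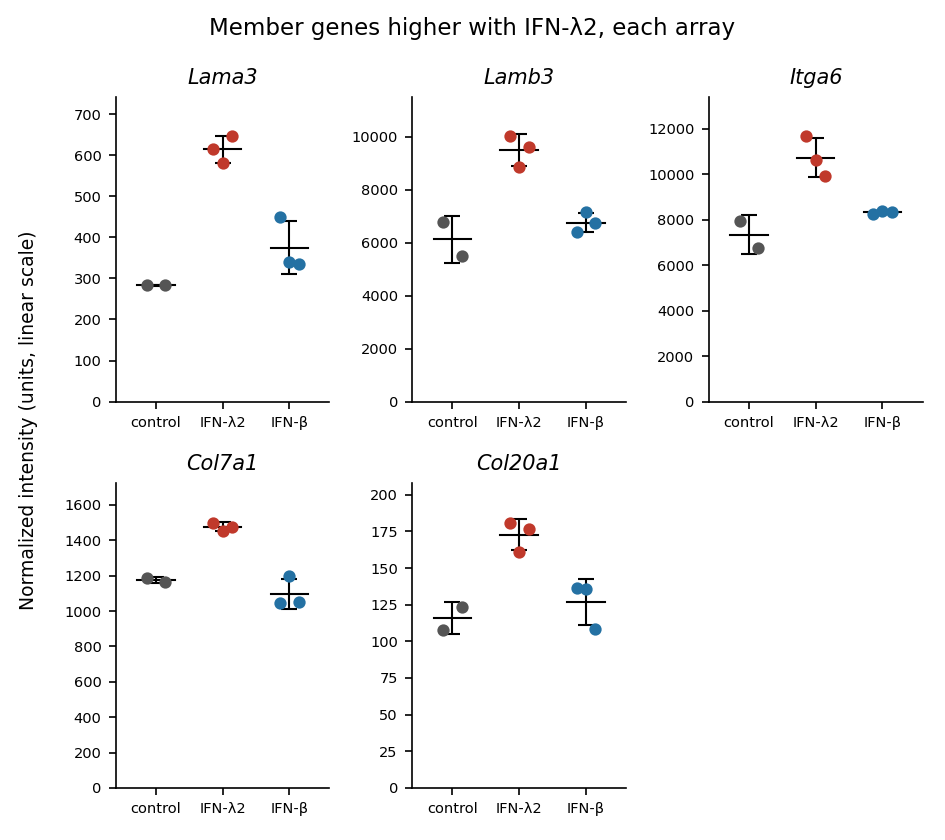
Normalized intensity (y axis, units on a linear scale from 0) of 5 genes higher with IFN-λ2, for each array of control, IFN-λ2 and IFN-β (x axis); points are arrays, the long line is the mean and bars are the SD. In each panel the 3 IFN-λ2 arrays lie above every control array, for example 582 to 646 against 283 units for Lama3.

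Other laminin chains were also measured. Lama5, the main α chain of mature intestinal basement membrane, differed between IFN-λ2 and control by 0.06 (95% interval -0.21 to 0.32), and Lamc1 by -0.30 (adjusted p = 0.0767). The β1 chain, which the array names Lamb1-1 and the name rule therefore missed, differed by 0.10. Lamb2, the β2 chain, was called lower: controls read 2630 and 2979 units, IFN-λ2 arrays 2111, 2288 and 1897 and IFN-β arrays 2593, 2788 and 2341. Its IFN-λ2 arrays were below all others, with a difference of -0.42 ± 0.12 (adjusted p = 0.0487) that did not pass without any 1 of the 8 arrays (0.0525 to 0.22). Lama1 read 38 to 63 units with IFN-λ2 and 77 to 93 with IFN-β, and passed between the cytokines alone (-0.83, adjusted p = 0.036, 0.0852 with the replicate block). Without any 1 array other than IFN-λ2 replicate 3 its adjusted p was 0.051 to 0.12, and with normexp the Lama1 difference was -0.21 (adjusted p = 0.472).

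Within type IV collagen, the paired chains Col4a1 and Col4a2 gave different readings. Col4a1 read 1156 and 1256 units in controls, 1057, 1250 and 1191 with IFN-λ2 and 1353, 1372 and 1243 with IFN-β. The IFN-λ2 and control arrays overlapped, with a difference of -0.05 (95% interval -0.28 to 0.18, adjusted p = 0.752). Col4a2 read 2267 and 2000 units in controls, 1098, 1373 and 1283 with IFN-λ2 and 1999, 2275 and 2017 with IFN-β. All IFN-λ2 arrays were below all others, by -0.77 ± 0.12 against control (adjusted p = 0.00631) and by -0.75 ± 0.11 against IFN-β (adjusted p = 0.00694). The intervals of both chains against control, -0.28 to 0.18 and -1.06 to -0.49, did not overlap, but the difference between them was not tested. On mm9 the Col4a1 probe lies at chr8:11199009-11199068, minus strand, and the Col4a2 probe at chr8:11448840-11448899, plus strand. No other protein-coding gene starts between these 2 genes, whose annotated starts bound the 22 bases that both transcripts share.

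The chains Col4a3 and Col4a4, which are also encoded head to head, were both lower. Col4a3 read 549 and 640 units in controls, 417, 373 and 391 with IFN-λ2 and 780, 611 and 647 with IFN-β. Its IFN-λ2 arrays were the lowest 3, by -0.59 ± 0.13 against control (adjusted p = 0.0207) and by -0.78 ± 0.11 against IFN-β (adjusted p = 0.00719). The call against control was lost without control replicate 3 (0.116) and without IFN-λ2 replicate 2 (0.0589) or 3 (0.0582). Col4a4 read 1123 and 1242 units in controls, 730, 749 and 594 with IFN-λ2 and 1156, 1118 and 1040 with IFN-β. This was a difference of -0.78 ± 0.12 (adjusted p = 0.00581) from control and of -0.68 (adjusted p = 0.00925) from IFN-β, without overlap. A dimmer Col4a4 probe gave -0.80 with an SE of 0.34 and did not pass (adjusted p = 0.15).

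For Col4a5 the difference from control was -0.28 (adjusted p = 0.0592) and from IFN-β -0.30 (adjusted p = 0.0445), the latter lost with the replicate block (adjusted p = 0.0631) and without any 1 array of either cytokine (0.0871 to 0.127). The brighter Col4a6 probe differed from control by -0.26 (adjusted p = 0.255). Col18a1, the collagen that releases endostatin, read 28233 and 27948 units in controls, 25227, 24302 and 24856 with IFN-λ2 and 30383, 31168 and 31344 with IFN-β. The controls lay between both cytokines, which differed by -0.32 ± 0.05 (adjusted p = 0.0127; 0.0552 without IFN-β replicate 3). Against control neither passed, with -0.18 for IFN-λ2 (adjusted p = 0.0887) and 0.14 for IFN-β (adjusted p = 0.434), and the second Col18a1 probe gave -0.19 between the cytokines (adjusted p = 0.112).

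Among the collagens outside the basement membrane, Col6a1, a chain of beaded microfibrils, read 1350 and 1461 units in controls, 616, 686 and 625 with IFN-λ2 and 1320, 1399 and 1427 with IFN-β. Control and IFN-β arrays overlapped and every IFN-λ2 array lay below both. Its difference from control was -1.13 ± 0.08 (adjusted p = 0.000248) and from IFN-β -1.11 ± 0.07 (adjusted p = 0.000413). Its probe lies at chr10:76171538-76171597 on mm9, minus strand, the build of the array files. With IFN-β it was -0.02 from control (95% interval -0.22 to 0.17). Its neighbour Col6a2 had no probe well above background in a group.

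Col8a2, a short-chain collagen, read 572 and 284 units in controls, 84, 106 and 131 with IFN-λ2 and 309, 450 and 401 with IFN-β. The 2 controls lay far apart, and all IFN-λ2 arrays were below both. Leaving out Col17a1, whose controls lay at the floor, the difference of -1.93 ± 0.33 (adjusted p = 0.00864) was the largest of the members that passed against control. It was -1.32 with normexp, which passed, -1.43 without control replicate 2 and -2.44 without control replicate 3, and did not pass by an ordinary 2-group t-test (adjusted p = 0.115). A difference of -1.86 separated IFN-λ2 from IFN-β (adjusted p = 0.00968; -1.21 with normexp, adjusted p = 0.0109). A second Col8a2 probe was well above background on 1 of 8 arrays. Col16a1 was called lower with IFN-λ2 against control (-0.50, adjusted p = 0.0489). That call was lost with the replicate block (adjusted p = 0.109) and without any 1 array of either cytokine (0.0534 to 0.108). Col16a1 differed by -0.32 without control replicate 2, where the call was also lost, and by -0.67 without control replicate 3. Against IFN-β it was -0.71 (adjusted p = 0.0136), which was 0.0534 with the replicate block, 0.0502 without IFN-λ2 replicate 1 and 0.0523 without IFN-β replicate 3, and its dimmer probe passed in neither. With normexp the Col16a1 differences were -0.17 from control (adjusted p = 0.601) and -0.39 from IFN-β (adjusted p = 0.227).

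Col2a1 and Col12a1, a fibrillar and a fibril-associated collagen, passed between the cytokines but not against control. Col2a1 read 386 and 341 units in controls, 296, 282 and 371 with IFN-λ2 and 507 to 517 on the 3 IFN-β arrays. All IFN-β arrays were above all others, and IFN-λ2 was -0.70 ± 0.11 from IFN-β (adjusted p = 0.0103). Col12a1 read 22 to 34 units with IFN-λ2 and 43 to 55 with IFN-β (-0.84, adjusted p = 0.0228). This was lost without IFN-λ2 replicate 1 (0.0581) or 3 (0.0677) or IFN-β replicate 2 (0.063) or 3 (0.0801). With normexp background correction the Col12a1 difference was -0.01 (adjusted p = 0.967), and with a floor of 50 units it was -0.05 (adjusted p = 0.49). The interstitial collagens were scarce, with Col1a1 at 15 to 29 units and Col1a2 at 20 to 62 over all arrays and neither passing, and Col3a1, Col5a1 and Col5a2 not well above background in any group. Fibrillins and fibulins had 3 of 6 genes as members (Fbln1, Fbln2 and Fbln5), with differences between IFN-λ2 and control of 0.47, -0.13 and 0.23 and adjusted p-values of 0.376, 0.715 and 0.769.

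Of the integrins, 5 chains were lower with IFN-λ2. They were 2 of 9 α, 2 of 5 β and 1 of 4 leukocyte chains among the member genes, and 1 α chain, Itga6, was higher. Over all probes 8.55% were lower and 10% higher. Itga7, the α chain of a laminin receptor best known from muscle, read 2039 and 1733 units in controls, 903, 958 and 986 with IFN-λ2 and 1941, 2370 and 2102 with IFN-β. All IFN-λ2 arrays were lower than all others, by -0.99 ± 0.11 against control (adjusted p = 0.00179) and -1.17 ± 0.10 against IFN-β (adjusted p = 0.00107). For Itgb3, the β chain of vitronectin and fibrinogen receptors, controls read 573 and 551 units, IFN-λ2 arrays 270, 268 and 286 and IFN-β arrays 520, 405 and 466. IFN-λ2 arrays were the lowest 3 and IFN-β arrays lay between, with -1.03 ± 0.11 for IFN-λ2 against control (adjusted p = 0.00129) and -0.28 for IFN-β (adjusted p = 0.372). IFN-λ2 was -0.75 below IFN-β in Itgb3 (adjusted p = 0.00473), and its second probe was well above background on no array.

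Itgb7, the β chain of the gut-homing receptors of lymphocytes, read 201 and 212 units in controls, 99, 95 and 125 with IFN-λ2 and 279, 246 and 244 with IFN-β. The 3 groups did not overlap, with IFN-λ2 below and IFN-β above the controls. IFN-λ2 differed from control by -0.96 ± 0.13 (adjusted p = 0.00386) and from IFN-β by -1.27 ± 0.12 (adjusted p = 0.00139), and IFN-β from control by 0.31 (adjusted p = 0.424). With normexp, Itgb7 differed by -0.53 from control (adjusted p = 0.0454) and by -0.79 from IFN-β (adjusted p = 0.00682). Among 8 leukocyte markers, Ptprc, which all leukocytes carry, read 15 to 44 units over all arrays. The leukocyte markers summed to 15359 to 18751 units in controls, 12491 to 14676 with IFN-λ2 and 12488 to 20055 with IFN-β. Of these 8 markers, Cd3e, Cd14, Cd68, Csf1r and Itgam were well above background on all 8 arrays. Most of the sum was Csf1r (4604 to 6909 units), Cd14 (3427 to 4633 units) and 1 probe of Itgam, the αM chain, which ranged from 2115 to 10737 units, whereas the other Itgam member probe read 24 to 95. The part of these markers in the Itgb7 result was not tested. Neither Itgam probe passed (-1.33, adjusted p = 0.143, and 0.69, adjusted p = 0.467, for IFN-λ2 against control).

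The fibronectin receptor chain Itga5 read 268 and 247 units in controls, 166, 191 and 174 with IFN-λ2 and 249, 240 and 256 with IFN-β. IFN-λ2 arrays were below all others, by -0.54 ± 0.09 against control (adjusted p = 0.00686) and -0.49 ± 0.08 against IFN-β (adjusted p = 0.00962). With normexp these Itga5 differences were -0.37 (adjusted p = 0.0519) and -0.27 (adjusted p = 0.123). Itgb5, a partner of αv, read 12229 and 12426 units in controls, 8805, 9075 and 7661 with IFN-λ2 and 11392, 11703 and 10748 with IFN-β. IFN-β arrays lay between the other groups, and IFN-λ2 differed by -0.54 ± 0.09 from control (adjusted p = 0.00896). The call was lost with normexp (adjusted p = 0.18), with an ordinary 2-group t-test (0.085) and without control replicate 3. From IFN-β, IFN-λ2 differed by -0.41 (adjusted p = 0.0229), which was lost with normexp (0.186), without IFN-λ2 replicate 1 (0.0649) or any 1 IFN-β array (0.0542 to 0.0681).

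Other integrin chains did not pass against control. Itgb1, the β chain of most matrix receptors, differed between IFN-λ2 and control by -0.21 (95% interval -0.41 to -0.02, adjusted p = 0.121) for its brighter probe. Itgav differed by -0.16 (95% interval -0.33 to 0.02) and Itgb6 by 0.10 (95% interval -0.46 to 0.67). Itga2 and Itgb8 were at the floor on all 8 arrays. Itga1, a collagen receptor chain near background, read 35 to 47 units with IFN-λ2 and 21 to 25 with IFN-β (0.82, adjusted p = 0.0262). It was well above background on 2 of 3 IFN-λ2 arrays and 1 of 3 IFN-β arrays. This was lost without IFN-λ2 replicate 1 (0.0887) or 3 (0.0737) or any 1 IFN-β array (0.0556 to 0.0715), with normexp (0.61, adjusted p = 0.0722) and with a floor of 50 units, under which both groups lay.

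**Figure D3:**
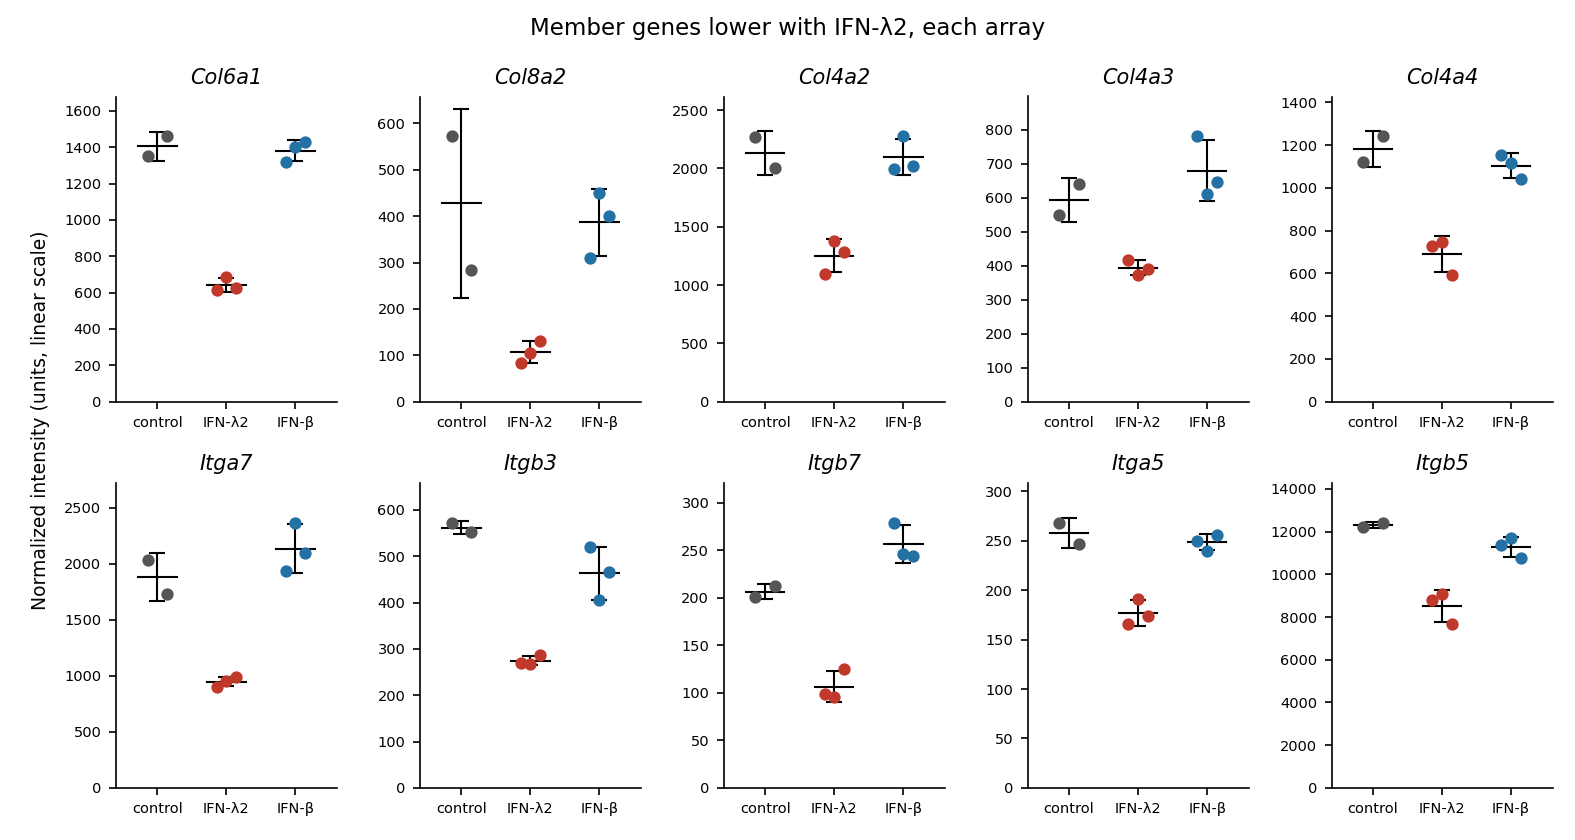
Normalized intensity (y axis, units on a linear scale from 0) of 10 genes lower with IFN-λ2, for each array of control, IFN-λ2 and IFN-β (x axis); points are arrays, the long line is the mean and bars are the SD. In every panel the 3 IFN-λ2 arrays lie below both control arrays, for example 616 to 686 against 1350 and 1461 units for Col6a1.

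With IFN-β, limma called 0 of 60 member probes against control, where 1.65% of all 25971 probes were called. At an unadjusted p of 0.05, 6 member probes (10%) passed, against 12% of all probes, and an ordinary 2-group t-test after adjustment called 0. The median log2 difference was 0.05 over the members and 0.02 over all probes. The 95% interval was 0.19 to 0.80 for Col2a1 (0.49) and 0.22 to 0.73 for the dimmer Lama3 probe (0.47), so that missing the threshold does not show these genes to be unchanged. Both cytokines were compared with the same 2 control arrays, and their values are therefore given side by side without a measure of likeness.

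**Figure D4:**
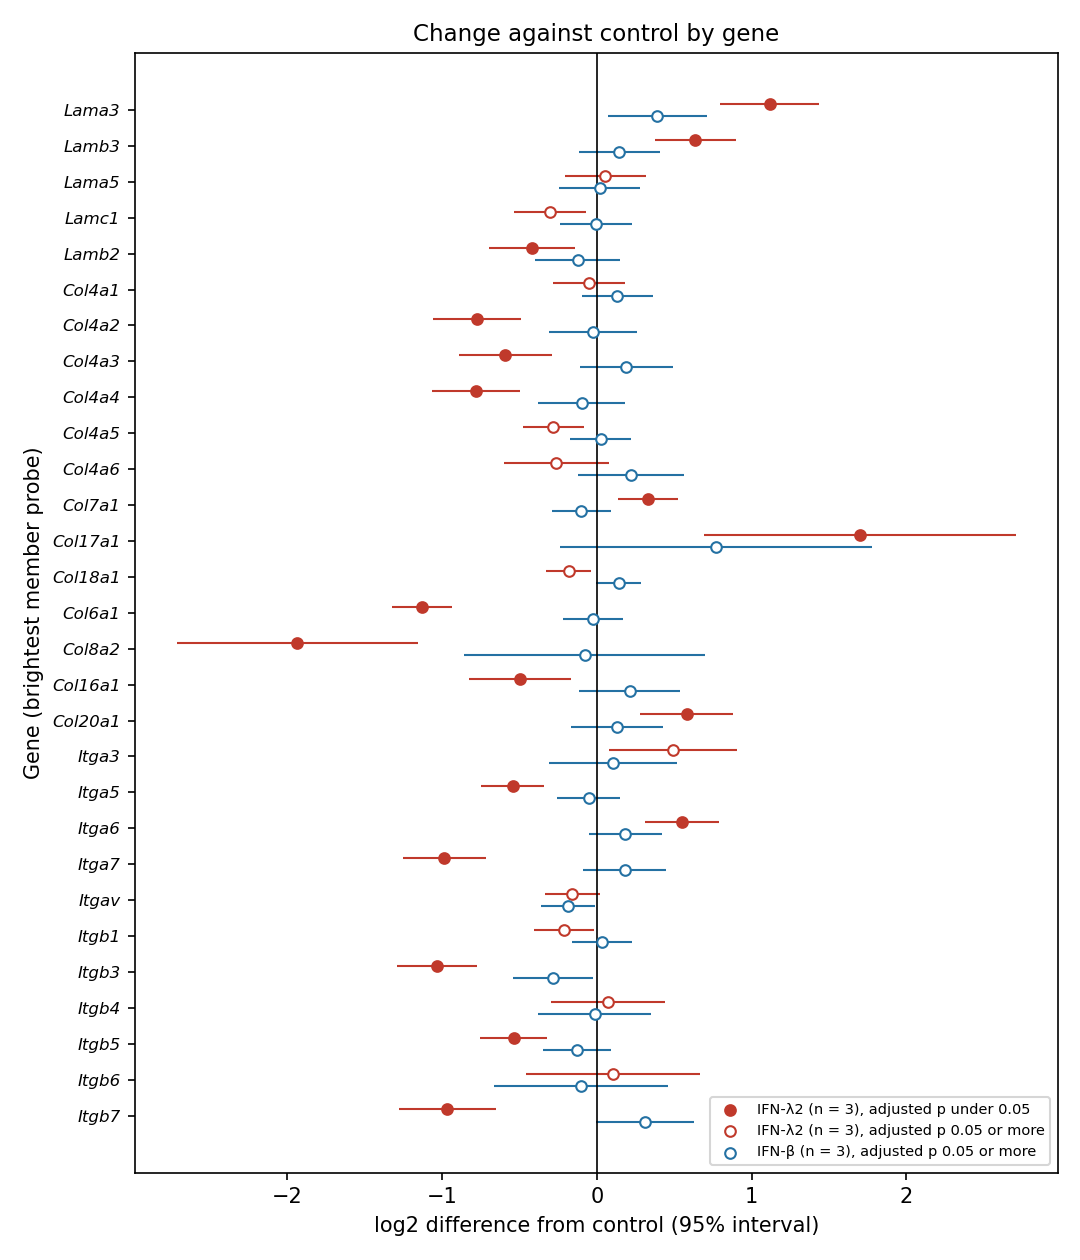
Log2 difference from control (x axis) of 29 member genes (y axis, brightest member probe) for IFN-λ2 in red and IFN-β in blue; lines are 95% intervals and filled points passed an adjusted p of 0.05. Filled points occur for IFN-λ2 alone, from -1.93 for Col8a2 to 1.70 for Col17a1, the latter measured against controls at the floor.

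Compared directly, limma called 8 member probes (13.3%) higher with IFN-λ2 and 16 (26.7%) higher with IFN-β, against 5.53% and 5.68% of all 25972 probes tested. Arrays of both cytokines did not overlap for 11 member probes higher with IFN-λ2 and 25 higher with IFN-β, against 16% and 16.3% of all probes. A 2-fold difference was reached by 0 probes higher with IFN-λ2 and 4 higher with IFN-β (Col6a1, Col8a2, Itga7 and Itgb7), against 1.44% and 0.774% of all probes. The median log2 difference was -0.20 over the members and -0.02 over all probes. With the slide as a block, 4 in place of 8 member probes were higher in the comparison of both cytokines, and 4 in place of 9 in that of IFN-λ2 and control. Each group had the same position on every slide, and slide 1 held no control among the arrays used, so position and treatment cannot be told apart.

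Other genes of matrix and adhesion were read from lists written alongside the members. Of 17 collagen and elastin modifying enzymes tested, 7 were lower and 2 higher with IFN-λ2 than in controls, where 8.55% of all probes were lower and 10% higher. Higher were Pcolce, an enhancer of procollagen processing (0.58, adjusted p = 0.00891), and the transglutaminase Tgm2 (0.46, adjusted p = 0.0158), both named after their values were seen. Lower were Loxl1 (-1.07, adjusted p = 0.0057) and Loxl3 (-1.03, adjusted p = 0.000364), which cross-link collagen and elastin, Serpinh1, the collagen chaperone (-0.83, adjusted p = 0.00575), and P4ha2, a prolyl hydroxylase (-0.64, adjusted p = 0.00434). With IFN-β, 1 of the 17, Loxl3, was lower (-0.48, adjusted p = 0.0419). Of 22 other basement membrane genes and glycoproteins, 5 were lower and 1 higher with IFN-λ2. Lower were the calcium-binding glycoprotein Smoc1 (-1.64, adjusted p = 0.00082), the collagen-binding protein Tgfbi (-1.52, adjusted p = 0.00264), Npnt, the ligand of integrin α8β1 (-1.24, adjusted p = 0.0135), and the basement membrane protein Fras1 (-1.22, adjusted p = 0.0175). Thbs1, a matrix glycoprotein that activates TGF-β, was the higher gene with IFN-λ2 (0.91, adjusted p = 0.00363) and the 1 gene of that list to pass with IFN-β (0.71, adjusted p = 0.0457), and the cytokines differed in it by 0.20 (adjusted p = 0.312).

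Of 11 non-integrin matrix receptors and tetraspanins, 3 were lower with IFN-λ2, where 8.55% of all probes were lower, namely Sdc2 (-0.67, adjusted p = 0.0023) and Sdc1 (-0.38, adjusted p = 0.0255), which are syndecans, and the collagen receptor kinase Ddr1 (-0.44, adjusted p = 0.011). Of 19 focal adhesion and hemidesmosome plaque genes, 1 was higher, the adhesion plaque protein Vcl (0.32, adjusted p = 0.0434), where 10% of all probes were higher. Of 9 genes of TGF-β ligands, receptors and activation, 2 were lower, Tgfb2 (-0.84, adjusted p = 0.0286) and Tgfb1 (-0.36, adjusted p = 0.0211), and 2 were higher, the receptor Tgfbr2 (0.43, adjusted p = 0.0179) and the pathway inhibitor Smad7 (0.27, adjusted p = 0.0404), beside the same 8.55% and 10% of all probes. Against IFN-β, 3 enzymes were higher and 7 lower with IFN-λ2, and lower were also 7 glycoproteins, 3 receptors, 2 plaque genes and 3 TGF-β genes, where 5.53% of all probes were higher and 5.68% lower.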

How the data were processed

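Array data of 8 samples were used: 2 control, 3 IFN-λ2 and 3 IFN-β arrays, grouped and numbered by their labels. Control replicate 1 is not part of the samples used. The authors read 1-color (Cy3) Agilent arrays with version 10.7.3.1 of Feature Extraction. They deposited the processed intensity of every feature, background-subtracted by the scanner software, and a table of scaled intensities on a linear scale, which differs from the values used here by 1 constant factor per array.

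As in the methods, features flagged as outliers, outside 1.42 interquartile ranges of their copies or with a pixel coefficient of variation above 0.5 were left out. Copies of a probe were averaged geometrically, each array was scaled so that its 75th percentile was 1500, values under 15 were set to 15, and log2 was taken. Testing used the 25972 probes that exceeded this floor on 2 or more arrays, in 1 limma 3.58.1 fit (R 4.3.3) of the 3 groups with Benjamini-Hochberg adjustment over all probes at 0.05. Tables were made with scipy 1.17.1, pandas 2.3.3 and numpy 2.4.6 under Python 3.11.15. Saturated features were absent.

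Of the 119 probes, 113 matched a RefSeq table by accession with the same symbol and 6 by symbol alone. Named are all member genes that passed, a set of epithelial basement membrane, hemidesmosome and integrin chains whatever their values, and genes whose probes disagree. Of each other list and comparison, at most 4 passing genes are named, by absolute change. Pcolce and Tgm2 were named beyond this limit. The brightest member probe stands for a gene. The values of 1 member gene are not reported here, although counts include it. Members and lists were chosen with earlier results of these data known. In simulated data in which 200 of 25972 probes had a log2 shift of 2, limma recovered 87% for IFN-λ2 against control (12 false calls), 90.5% for IFN-β (20 false calls) and 94.5% between the cytokines (20 false calls). This shift was larger than the difference of any member called, and the simulated arrays were independent of each other. The rates therefore do not apply to the smaller differences reported here.

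Replicate number and slide coincide. Across probes, deviations from the group means of same-numbered IFN-λ2 and IFN-β arrays correlated at 0.178, 0.255 and 0.297, so these numbers pair the arrays. For controls they were 0.001 and -0.010 with IFN-λ2 and 0.101 and -0.057 with IFN-β. Alternatives were the replicate block, leaving out each array, normexp, quantile normalization, a floor of 50 or none, other filters on dim probes, keeping all features, the deposited table, fits of 2 groups, a variance trend and the methods' t-test.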

Additional observations from a re-analysis of the deposited data

Results flagged for a closer look

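For 8 member genes every array of one cytokine lay above the control mean and every array of the other below it, and the direct test between the cytokines passed (limma, adjusted p under 0.05). The share of all probes with this pattern was not computed, so whether the members show it more often is not known. The log2 differences, IFN-λ2 minus IFN-β, were -1.27 for Itgb7, -1.17 for Itga7, -0.84 for Col12a1, -0.83 for Lama1, -0.78 for Col4a3, -0.71 for Col16a1 and -0.32 for Col18a1, with IFN-λ2 arrays below the control mean, and 0.82 for Itga1, with IFN-λ2 arrays above it. Against control, the adjusted p of IFN-β was 0.424 to 0.685 in these 8 genes. With normexp background correction 5 of the 8 did not pass, namely Col12a1 (-0.01, adjusted p = 0.967), Lama1 (-0.21, 0.472), Col16a1 (-0.39, 0.227), Col18a1 (-0.33, 0.0737) and Itga1 (0.61, 0.0722). Itga1 read 21 to 25 units with IFN-β, well above background on 1 of the 3 arrays, and with a floor of 50 units its difference was 0.00.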

How the results depend on the processing

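Against control, 9 member probes were higher and 12 lower with IFN-λ2. These were 4 and 7 with normexp background correction, which moved the median of all probes by 0.11, and 4 and 3 with the ordinary 2-group t-test after adjustment. With a 2-fold change they were 3 and 3, and with the unadjusted p and 2-fold change of the methods 1 and 2. The replicate block left 4 higher. Leaving out each array gave 4 to 9 higher (4 without control replicate 2 or IFN-λ2 replicate 1, 5 without control replicate 3 or IFN-λ2 replicate 3) and 10 to 11 lower. With IFN-β, 1 probe was higher with a floor of 50 (Col18a1), and 0 to 1 lower and 0 higher when leaving out each array, the 1 being the dimmer Col4a6 probe without control replicate 3.

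Between the cytokines, 8 were higher and 16 lower. Normexp, which moved the median of all probes by 0.11 here, gave 4 and 8. The 2-fold change gave 0 and 4, and the unadjusted p and 2-fold change of the methods gave 0 and 3. Higher were 5 with a floor of 50, 4 without a filter on dim probes, 4 with the replicate block and 3 with the ordinary 2-group t-test after adjustment. Leaving out each array gave 2 to 6 higher (2 without IFN-λ2 replicate 1 or IFN-β replicate 3, 3 without IFN-λ2 replicate 3 or IFN-β replicate 1, 5 without IFN-λ2 replicate 2 or IFN-β replicate 2) and 11 to 16 lower.

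Under all 20 alternatives, Col6a1, Itga7, Itgb3 and Lama3 kept their calls against control and Col4a2, Col4a3, Col6a1, Col8a2, Itga7, Itgb3 and Itgb7 between the cytokines. Other calls were lost under at least 1. The ordinary 2-group t-test ended, among others, the calls against control of Lamb3 (adjusted p = 0.0981), Itga6 (0.112), Itgb7 (0.0777), Col4a2 (0.0852), Col4a4 (0.0888) and Itga5 (0.0756). No called difference changed sign. Normexp also ended the calls against control of Col4a3 (adjusted p = 0.0626), Col7a1 (0.117), Col20a1 (0.0515), Itgb5 (0.18) and Lamb2 (0.0961), and between the cytokines of Col2a1 (0.0501), Col4a5 (0.198), Col18a1 (0.0737), Col20a1 (0.0595), Itga6 (0.168), Itgb5 (0.186) and Lamb3 (0.0507). With the block, calls against control that were lost included Col16a1 (adjusted p = 0.109), Col17a1 (0.0709), Col20a1 (0.0722) and Lamb2 (0.0952). The 2 controls limit the precision of every difference from control, and for Col17a1, at the floor in both, the control level is a bound. Why the counts differ between settings was not tested.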
